A study of Homo sapiens with 12 samples.

Results

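The data describe how acquired resistance to vemurafenib differed between 2 established human melanoma cell lines, A375 and SKMel28. The quantity followed here is the line-by-resistance interaction, the change from sensitive to resistant cells in A375 minus the same change in SKMel28. It was taken over all 12 of the 12 libraries, and the genes described in most detail are those that moved in opposite directions in the 2 lines. Poly(A)-selected RNA was sequenced from 4 groups of 3 libraries: sensitive A375, resistant A375, sensitive SKMel28 and resistant SKMel28. All were grown in DMEM with 10% fetal bovine serum. The resistant derivatives were held under 1 µmol/L vemurafenib, an inhibitor of the mutant BRAF kinase, and the labels name no drug for sensitive cells. Acquired resistance and the presence of drug cannot be told apart in either line. The labels give no separate cultures for the 3 libraries of a group and do not say whether a resistant line is 1 clone. The p-values therefore measure the spread between these samples, which may be technical, and each resistant state is represented by 1 derivative of each line. The series asked what the IGF1 pathway does when melanoma cells escape BRAF and MEK inhibitors.

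In melanoma cells with mutant BRAF, the kinase drives MEK and then ERK without an outside signal. ERK in turn raises the transcription of immediate early factors such as EGR1 and of AP-1 subunits such as FOSL1, of cyclin D1, and of feedback inhibitors such as the DUSP phosphatases and SPRY proteins. Melanoma cells also occupy different states, from pigmented cells with high MITF and SOX10, through neural crest-like cells, to undifferentiated cells with high AXL, EGFR and SOX9 and low SOX10.

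The labelled cell type was checked on melanocytic markers. All 8 (MITF, SOX10, PMEL, MLANA, TYR, DCT, S100B and S100A1) were above 1 CPM (counts scaled to the size of the library) in both SKMel28 groups, where their summed level was 7315 to 7763 CPM in sensitive and 9033 to 9170 CPM in resistant libraries. In A375 the sum was 379 to 391 CPM when sensitive and 31.4 to 34.4 CPM when resistant, TYR had no read in either group, and only MITF was above 1 CPM in resistant cells. Summed markers of leukocytes stayed at or under 1.45 CPM and those of endothelial cells at or under 3.72 CPM in every library. The 7 keratinocyte markers, carried mostly by KRT10, summed to 124 to 129 CPM in sensitive and 102 to 108 CPM in resistant A375, and to 67.5 to 70.7 CPM and 28.6 to 34.5 CPM in SKMel28. Fibroblast markers lay between 16.6 and 29.7 CPM throughout. Libraries held 28496518 to 37721363 reads in genes. The share of gene reads from mitochondrially encoded genes was 1.85% to 1.99% in sensitive and 2.11% to 2.27% in resistant A375, and 4.41% to 4.67% and 6.82% to 7.13% in SKMel28, so it also moved by different amounts in the 2 lines.

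Of 15506 genes tested, 9891 differed between the lines in their change with resistance (63.8% of those tested, edgeR quasi-likelihood test, Benjamini-Hochberg adjusted p below 0.05). The change was more positive in A375 for 4874 genes (31.4%) and more negative for 5017 (32.4%). Differences of at least 2-fold numbered 1909 in the positive and 1731 in the negative sense. An interaction can also arise where a gene changed in 1 line, or changed one way in both by unequal amounts, so genes were called opposite only when the change in each line and the interaction were each called. By that definition 1581 genes (10.2%) were higher in resistant A375 and lower in resistant SKMel28, and 1529 (9.86%) were lower in resistant A375 and higher in resistant SKMel28.

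Among the 5975 genes called in both lines, 3110 moved in opposite directions (52.1%) and 2865 in the same direction, of which 1646 still differed in size between the lines. Calls were split almost evenly by direction in each line (3882 higher and 4077 lower in A375, 5301 and 5553 in SKMel28). The split moved somewhat with the scaling. Higher calls were 48.8% in each line here, 55% in A375 and 49.3% in SKMel28 with DESeq2 size factors, and 54% and 46.2% with library size alone. Unrelated changes in the 2 lines would thus also give nearly equal numbers of opposite and same direction. Across the 8814 genes that reached 10 CPM in 1 or both states of each line, the 2 lines' log2 fold changes had a Pearson r of -0.06 and a Spearman rho of -0.03; genes are not independent replicates and this is a description. Most opposite changes were small. The median log2 fold change of the first set was 0.36 in A375 and -0.63 in SKMel28, and that of the second set was -0.43 and 0.54. Changes of at least 2-fold in each line were seen for 177 genes of the first set and 198 of the second, and of at least 4-fold for 42 and 58. The 3 libraries of the 2 states did not overlap in either line for 1458 and 1410 genes, 92.2% of each set. The sets were chosen by calls in both lines and the share over all genes was not counted, so this is no separate support.

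**Figure D1:**
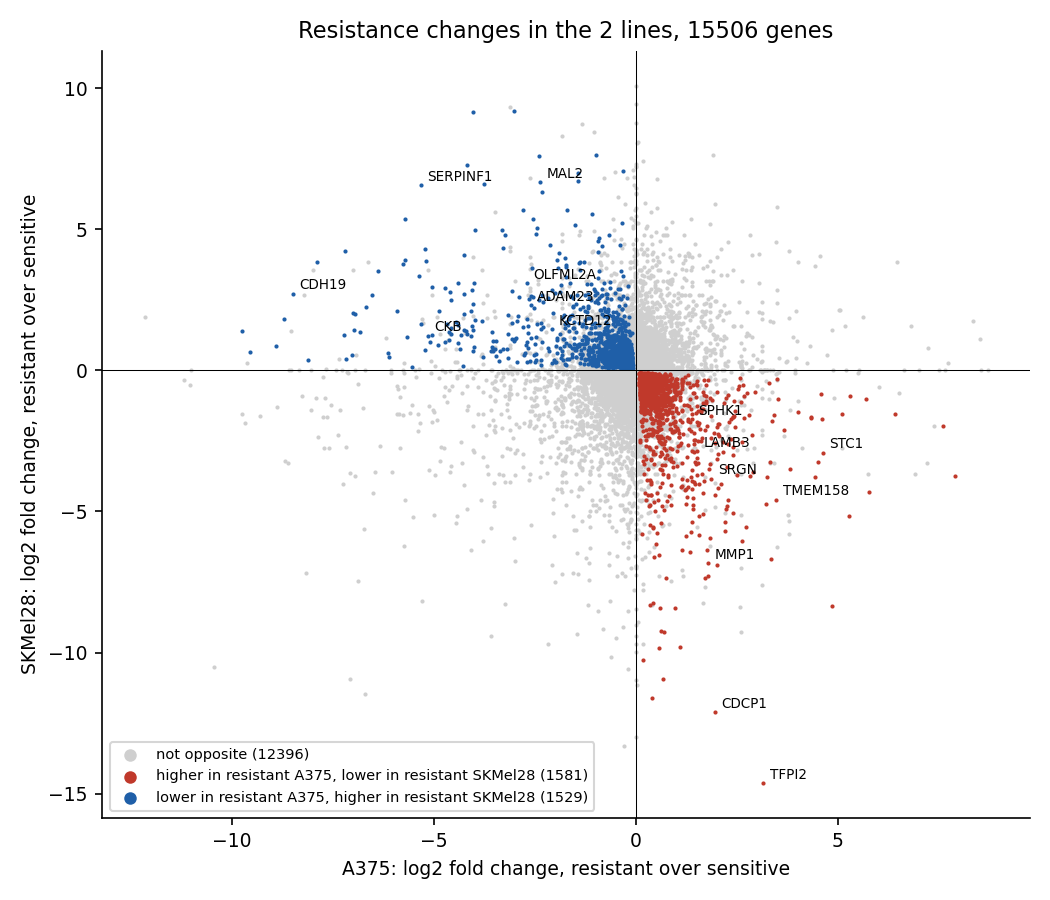
Log2 fold change from sensitive to resistant cells in A375 (horizontal) and in SKMel28 (vertical) for each of 15506 genes; red points are the 1581 genes higher in resistant A375 and lower in resistant SKMel28, blue points the 1529 genes of the reverse pattern, grey points all others, and labels mark leading opposite genes. Opposite genes fill the lower right and upper left quadrants, most of them near the centre; TFPI2 and CDCP1, at the bottom, had no read in resistant SKMel28, so their vertical positions depend on the fit and are not measured folds.

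The genes with the largest opposite changes are given first for the first sense (higher in resistant A375, lower in resistant SKMel28). They were taken as the 12 with the largest smaller change of the 2 lines, among genes whose higher state reached 10 CPM in both lines. TMEM158 led by that measure (log2 3.48), followed by TFPI2 (3.16), which had the largest fitted interaction of the 12. TFPI2 (chr7:93885396-93890991, minus strand), a secreted inhibitor of serine proteases of the matrix, was at 14.4, 14.8 and 14.4 CPM in sensitive and 123, 136 and 132 CPM in resistant A375. The SKMel28 libraries had 95.8, 96.5 and 94.4 CPM in sensitive cells, and no read was counted in any of the 3 resistant libraries. The lines thus ended at opposite extremes, with resistant A375 highest and resistant SKMel28 empty of reads. The log2 fold change in A375 was 3.16 ± 0.06 (SE), and expression was at least 3142-fold lower in resistant SKMel28, with the floor set at 3 reads for the whole group (edgeR adjusted p for the interaction 1.82e-45).

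TMEM158 and CDCP1 lie close to each other on the short arm of chromosome 3, at chr3:45224466-45226278 and chr3:45082278-45146422, both on the minus strand. TMEM158, a membrane protein gene induced by RAS signalling, had 23.1, 28.4 and 19.99 CPM in sensitive and 263, 295 and 240.3 CPM in resistant A375. In SKMel28 it went the other way, from 69.2, 77.8 and 88.4 CPM to 2.76, 3.56 and 3.53 CPM. Neither pair of groups overlapped, and the interaction was 8.06 ± 0.24 on the log2 scale (edgeR adjusted p = 1.52e-09). CDCP1, a transmembrane protein phosphorylated by SRC kinases, rose from a mean of 20.4 ± 1.2 to 79.8 ± 2.92 CPM (SD, n = 3) in A375. It fell from 16.9 ± 1.28 CPM to no read in resistant SKMel28, which is at least 554-fold lower by the same floor.

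STC1 (chr8:23841915-23854807, minus strand), the secreted glycoprotein stanniocalcin-1, showed the largest rise of these genes in A375. Its levels were 10.9, 13.2 and 10.6 CPM in sensitive and 293, 285 and 292 CPM in resistant A375, against 30.8, 25.4 and 29.4 CPM and 3.62, 4.13 and 3.62 CPM in SKMel28. Sensitive SKMel28 was above sensitive A375, and the order turned in the resistant cells. MMP1 (chr11:102789920-102798160, minus strand), interstitial collagenase, was at 12.4, 10.7 and 12.3 CPM in sensitive and 41.01, 39.2 and 43.7 CPM in resistant A375. Its SKMel28 levels were 99.98, 94.02 and 103.1 CPM when sensitive and 0.584, 0.820 and 1.20 CPM when resistant, for an interaction of 8.62 ± 0.13. EGR1, the immediate early factor, was at 9.05, 7.90 and 8.65 CPM and then 17.8, 20.6 and 17.9 CPM in A375, and at 96.4, 92.5 and 94.8 CPM and then 17.4, 14.9 and 15.8 CPM in SKMel28. EGR1 levels of the 2 resistant lines therefore lay close together, whereas the sensitive lines were far apart.

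The remaining members named in this sense were SRGN (serglycin, an intracellular and secreted proteoglycan core), with log2 fold changes of 1.88 in A375 and -3.84 in SKMel28, and LAMB3 (a chain of laminin-332) with 1.52 and -2.87. IGFN1, an immunoglobulin-domain protein gene, had 1.48 and -4.02. SPHK1, the kinase that makes sphingosine 1-phosphate, had 1.39 and -1.74. TM4SF1, a tetraspanin-like surface protein, went from 133 to 329.7 CPM in A375 (1.31) and, in SKMel28, from 140.1 to 8.02 CPM (-4.12). PGF, placental growth factor, had 1.27 and -3.06. In each of these 6 the sensitive and resistant libraries did not overlap in either line, which the choice of the genes required.

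The 12 genes of the second sense (lower in resistant A375, higher in resistant SKMel28) were led by SERPINF1 (chr17:1761959-1777574, plus strand), which encodes the secreted anti-angiogenic serpin PEDF. SERPINF1 was at 10.8, 11.9 and 11.4 CPM in sensitive and at 0.391, 0.297 and 0.151 CPM in resistant A375. In SKMel28 it was at 0.900, 0.941 and 0.880 CPM when sensitive and at 81.7, 90.2 and 88.9 CPM when resistant. The line with the higher level was A375 among sensitive cells and SKMel28 among resistant cells, and the interaction was -11.89 ± 0.19 (edgeR adjusted p = 5.44e-40). CDH19 (chr18:66501083-66604138, minus strand), a cadherin of the neural crest and Schwann cell lineage, started at like levels in both lines. It was at 14.5, 16.8 and 14.8 CPM in sensitive A375 and at 13.04, 12.9 and 11.3 CPM in sensitive SKMel28. Resistant A375 held 0.02796, 0.0595 and 0.0303 CPM and resistant SKMel28 held 82.96, 82.87 and 79.99 CPM, so the lines parted to either side.

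MAL2 (chr8:119165034-119245673, plus strand), a membrane protein of apical transport, was at 12.1, 10.5 and 11.3 CPM in sensitive and 1.73, 2.14 and 2.72 CPM in resistant A375. The SKMel28 libraries had 0.367, 0.403 and 0.0326 CPM when sensitive and 28.6, 26.4 and 27.8 CPM when resistant. CKB (chr14:103519659-103523111, minus strand), brain-type creatine kinase, was at 109, 112 and 115 CPM in sensitive and at 3.86, 2.91 and 2.75 CPM in resistant A375. It is an example of a large fall beside a smaller rise: in SKMel28 it was at 6.503, 5.75 and 6.78 CPM when sensitive and at 14.3, 15.2 and 15.3 CPM when resistant (log2 fold changes -5.13 ± 0.08 and 1.23 ± 0.09). NES (chr1:156668763-156677397, minus strand), nestin, an intermediate filament protein of neural progenitors, was at 124, 128 and 122 CPM and then 27.5, 25.6 and 23.3 CPM in A375, and at 3.80, 4.30 and 4.07 CPM and then 21.3, 21.4 and 22.3 CPM in SKMel28. Nestin differed widely between the sensitive lines and came within a narrow range in the resistant ones.

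Of the other genes of this sense, OLFML2A (an olfactomedin-domain matrix protein) had log2 fold changes of -2.69 in A375 and 3.10 in SKMel28, and ADAM23 (a non-catalytic metalloproteinase-like protein of neurons) -2.60 and 2.30. SPATA6 had -1.80 and 1.89 and KCTD12 (an auxiliary subunit of GABA-B receptors) -2.07 and 1.47. CDIP1, a p53-responsive pro-apoptotic gene, had -1.19 and 2.08, and ZNF608 had -1.27 and 1.22. All 24 genes kept their opposite call under each of the 19 other fits that were run, including those that left out a library.

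**Figure D2:**
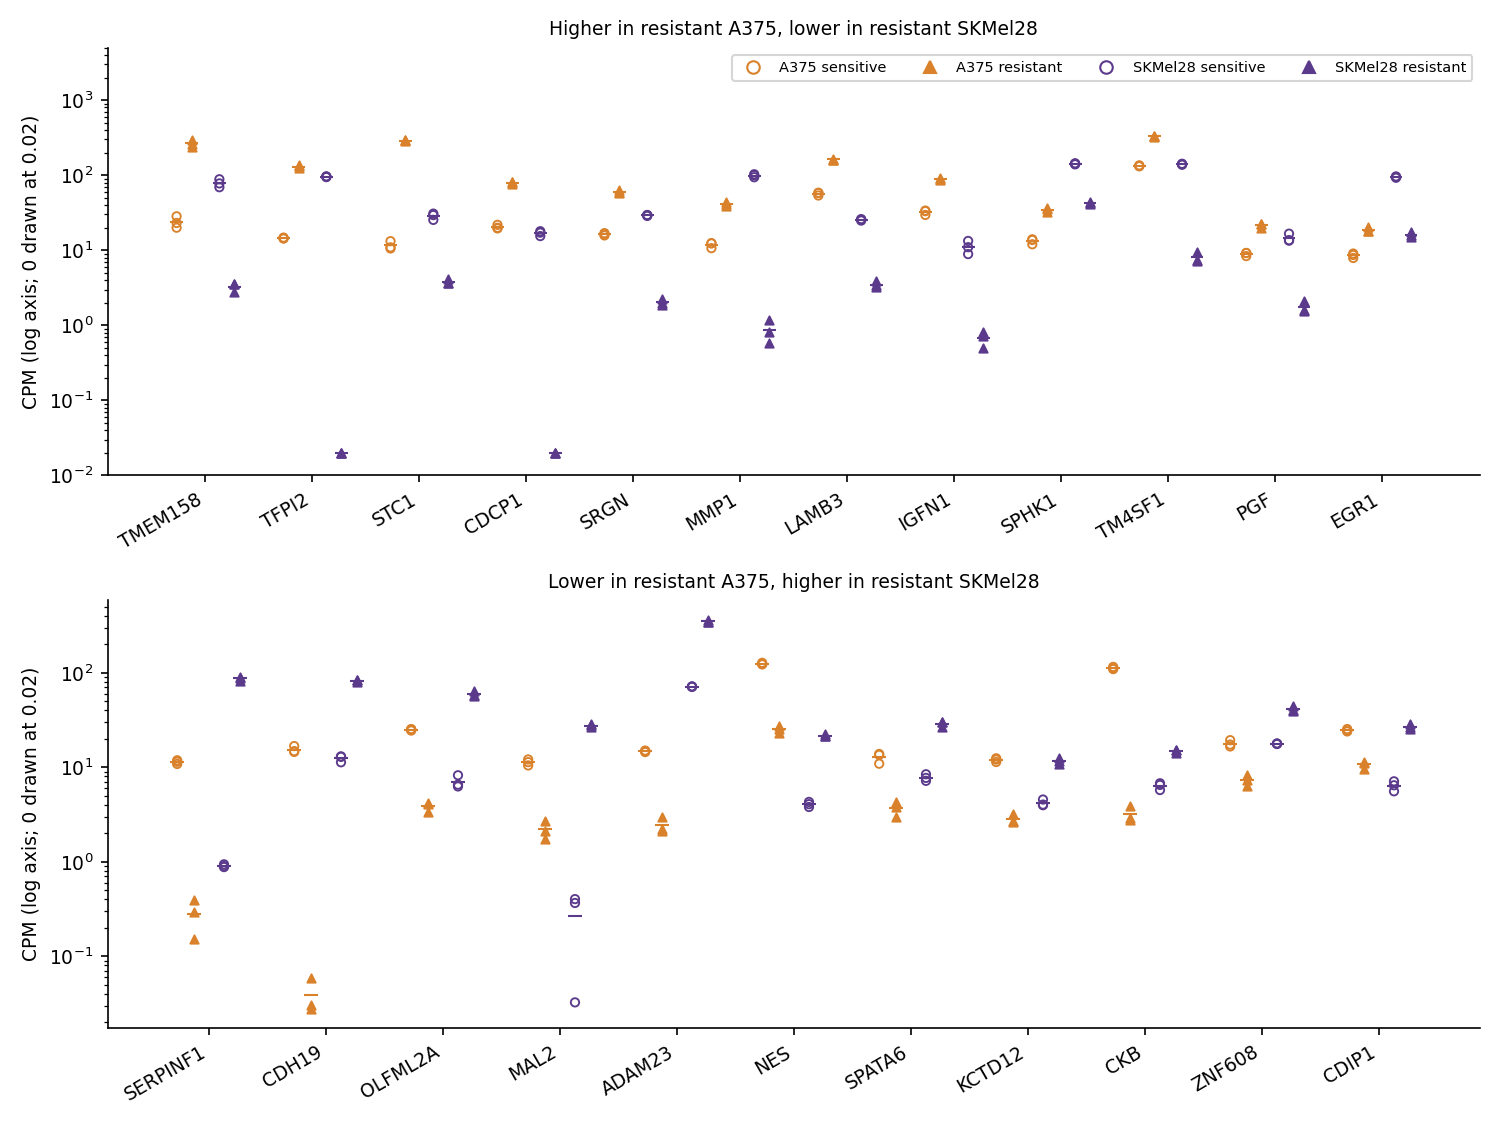
Level of 23 of the 24 leading opposite genes in each of the 12 libraries, in CPM on a log axis with libraries without reads drawn at 0.02; orange is A375, purple is SKMel28, open circles are sensitive, filled triangles resistant, and short bars are means over 3 libraries. In the upper panel triangles lie above circles in A375 and below them in SKMel28, as for MMP1 (11.8 to 41.3 CPM against 99.0 to 0.866 CPM), and in the lower panel the pattern is reversed, as for SERPINF1 (11.4 to 0.280 CPM against 0.907 to 87.0 CPM).

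The opposite genes were also set against the starting difference between the lines. For 516 of the 1581 genes of the first set and 586 of the 1529 of the second, the line with the higher level when sensitive had the lower level when resistant. Such turns were not counted over all genes tested, so these counts have no background. The gap between the lines became smaller for 615 of the 1581 and 553 of the 1529 genes, against 6545 (42.2%) of all genes tested. The median absolute log2 gap went from 0.78 to 1.04 in the first set, from 0.71 to 1.01 in the second, and from 0.74 to 0.88 over all genes (log2 of CPM + 0.1), so the lines lay farther apart after resistance over all genes as well. The larger of the 2 opposite changes was that of SKMel28 for 1146 genes of the first set and 886 of the second. The share of all genes tested with the larger change in SKMel28 was not counted, so these numbers have no background either. SKMel28 also had more calls over all genes, 5301 higher and 5553 lower, against 3882 and 4077 in A375.

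Promoter sequences are shown for genes of the first sense because promoters were searched for an AP-1 motif and some AP-1 subunits moved in opposite directions. The letters searched were TGANTCA, with any central base. They take in TGACTCA and TGAGTCA, the sites recognised by dimers of FOS and JUN proteins, and are looser than these. Promoters run from 250 bases before to 50 bases after the start of the gene (RefSeq, GRCh38.p14). They were matched for 12122 of the 15506 genes (78.2%). The motif, on either strand and reading the same on both apart from its central base, was found in 598 of them (4.93%). It was in 19 of 129 promoters (14.7%) of genes of the first sense with at least 2-fold changes in each line, in 7 of 149 (4.70%) of the second sense with the same fold, and in 74 of 1292 (5.73%) and 59 of 1250 (4.72%) of the whole sets. Most of the 19 genes were weakly expressed, and with at least 10 CPM in each line the motif was in 3 of 16 promoters of the first sense, 0 of 16 of the second and 289 of 7384 (3.91%) of all genes. Those 3 promoters, chosen after their values were seen, follow from 5′ to 3′ on the gene's strand with the motif in capitals. They are TFPI2 (chr7:93890704-93891003, minus strand), SPHK1 (chr17:76382954-76383253, plus strand) and CXCL8 (chr4:73740319-73740618, plus strand).
TFPI2: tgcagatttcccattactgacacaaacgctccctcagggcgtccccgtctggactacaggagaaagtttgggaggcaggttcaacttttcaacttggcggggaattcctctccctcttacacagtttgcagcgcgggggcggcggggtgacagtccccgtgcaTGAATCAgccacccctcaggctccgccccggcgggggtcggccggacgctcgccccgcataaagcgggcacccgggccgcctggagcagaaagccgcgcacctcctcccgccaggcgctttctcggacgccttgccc
SPHK1: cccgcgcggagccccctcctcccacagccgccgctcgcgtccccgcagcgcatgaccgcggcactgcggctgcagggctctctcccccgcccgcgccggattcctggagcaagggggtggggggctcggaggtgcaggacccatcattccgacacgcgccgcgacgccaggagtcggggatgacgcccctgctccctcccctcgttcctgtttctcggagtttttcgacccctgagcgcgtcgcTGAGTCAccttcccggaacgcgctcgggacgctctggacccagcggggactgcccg
CXCL8: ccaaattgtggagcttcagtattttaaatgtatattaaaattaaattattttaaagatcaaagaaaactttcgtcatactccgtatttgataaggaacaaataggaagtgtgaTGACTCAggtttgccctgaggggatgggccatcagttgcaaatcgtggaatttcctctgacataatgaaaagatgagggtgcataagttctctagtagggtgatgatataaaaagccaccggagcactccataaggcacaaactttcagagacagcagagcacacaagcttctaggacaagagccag
By the RefSeq starts the match begins 87 bases before the start of TFPI2, 6 bases before that of SPHK1 and 137 bases before that of CXCL8. Gene positions given elsewhere are of GENCODE, whose spans can begin farther upstream. The SPHK1 window lies inside its GENCODE span (chr17:76376584-76387860), and most of the TFPI2 window lies inside that of TFPI2. The motif was not in the matched promoters of TMEM158, CDCP1, TM4SF1, LAMB3, PGF, IGFN1 or EGR1. A match describes these letters alone, and binding was not measured. That of TFPI2, TGAATCA, is neither TGACTCA nor TGAGTCA.

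Beside the single genes, 34 lists of pathway genes and markers were counted. The counts of genes are read against the 10.2% and 9.86% of all genes tested that were opposite in the 2 senses, and against the medians over all genes, which were 0 in A375 and -0.01 in SKMel28. Counts of members that fell in both lines are read against the 1524 of all genes tested (9.83%) called lower in both.

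Genes whose transcription follows ERK activity formed the list with the largest share of members opposite in the first sense. Of 28 tested, 17 (60.7%) were higher in resistant A375 and lower in resistant SKMel28, none showed the reverse, and the median log2 fold change was 0.18 in A375 and -1.49 in SKMel28. The number was 16 to 19 over the other fits. DUSP6, the phosphatase that inactivates ERK, was at 175, 188 and 181 CPM in sensitive and 313, 312 and 303 CPM in resistant A375. Its SKMel28 levels were 135, 133 and 140 CPM when sensitive and 75.3, 78.5 and 75.5 CPM when resistant, a change of nearly equal size in the reverse direction (0.77 ± 0.04 and -0.83 ± 0.04). CCND1, cyclin D1, was at 600.3, 604.8 and 629.4 CPM and then 688.2, 708.7 and 690.8 CPM in A375, a small rise without overlap. In SKMel28 it was at 2473, 2528 and 2557 CPM and then 746.9, 771.1 and 788.4 CPM, so that the 2 resistant lines had like levels. HMGA2, an architectural chromatin factor, went from 268 to 509.6 CPM (0.93) in A375 and, in SKMel28, from 133 to 42.9 CPM (-1.64). DUSP5, a nuclear ERK phosphatase, had 46.7 and 89.1 CPM in the A375 groups (0.93) and 16.1 and 8.40 CPM in those of SKMel28 (-0.94). PLAUR (the urokinase receptor, 0.65 and -4.80), LIF (a cytokine of the IL6 family, 0.44 and -5.54) and MYC (0.85 and -0.51) belonged to the opposite members as well. The Sprouty feedback inhibitors did not: SPRY4 was lower in both resistant lines (-0.45 in A375, -1.20 in SKMel28), as were SPRY1 (-0.39 and -1.43) and SPRY2 (-0.80 and -1.27), and 8 of the 28 fell in both lines.

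Immediate early and AP-1 genes showed a like split, with 13 of 23 (56.5%) opposite in the first sense and 1, the orphan nuclear receptor gene NR4A1 (-1.48 and 0.47), in the second. FOSL1, the FOS-family subunit that ERK sustains, was at 418, 415 and 415 CPM in sensitive and 639, 619 and 616 CPM in resistant A375. The SKMel28 libraries had 139.6, 139.7 and 158 CPM and then 40.3, 41.8 and 42.0 CPM. Sensitive A375 already exceeded sensitive SKMel28, and the gap widened. FOSB (0.46 and -3.31), FOS (1.14 and -0.29) and JUN (0.55 and -0.25) moved in the same senses as FOSL1. Not every subunit was opposite. JUND was not called in A375 (0.03) and rose in SKMel28 (0.40), and FOSL2 rose in A375 (0.40) and was not called in SKMel28 (-0.06). The median of the list was 0.40 in A375 and -0.42 in SKMel28.

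Inflammatory genes and genes of NF-kB signalling were opposite in the first sense for 13 of 26 tested (50%) and in the second for none, with medians of 0.36 and -1.69. IL1B, interleukin-1 beta, was at 20.1, 18.9 and 19.1 CPM in sensitive and 42.4, 41.8 and 41.0 CPM in resistant A375. Its SKMel28 levels were 82.1, 81.8 and 90.4 CPM when sensitive and 0.184, 0.0630 and 0.0291 CPM when resistant (log2 fold changes 1.10 ± 0.06 and -9.80 ± 0.14). IL1B was therefore higher in SKMel28 than in A375 when sensitive and lower when resistant. CXCL8, the neutrophil chemokine interleukin-8, whose promoter is printed above, was at 13.7, 15.8 and 15.4 CPM and then 28.9, 32.1 and 31.9 CPM in A375. In SKMel28 it was at 242, 238 and 228 CPM and then 53.8, 56.1 and 54.5 CPM, and remained above A375. IRAK2 and BIRC3, a signalling kinase and an inhibitor of apoptosis of this pathway, and NFKBIA and RELB, an inhibitor and a subunit of NF-kB, were opposite in the first sense too. CCL5 (2.83 and -3.73) and IL32 (1.38 and -3.54) were opposite at under 5 CPM in all groups, and the call of IL32 was lost without resistant A375 library 2 and with a filter at 2 CPM. In the first sense were also 7 of 24 p53 targets (29.2%) and 7 of 31 interferon-stimulated genes (22.6%), against 0 and 1 in the second. The 7 interferon-stimulated genes became 4 without sensitive A375 library 1 or 3, which ended the calls of IFI35, IFIH1 and OAS2. CDKN1A, the p21 gene whose product restrains cyclin-dependent kinases, had 180.1 and 365 CPM in the sensitive and resistant A375 groups and 27.2 and 21.8 CPM in those of SKMel28 (1.02 and -0.32).

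**Figure D3:**
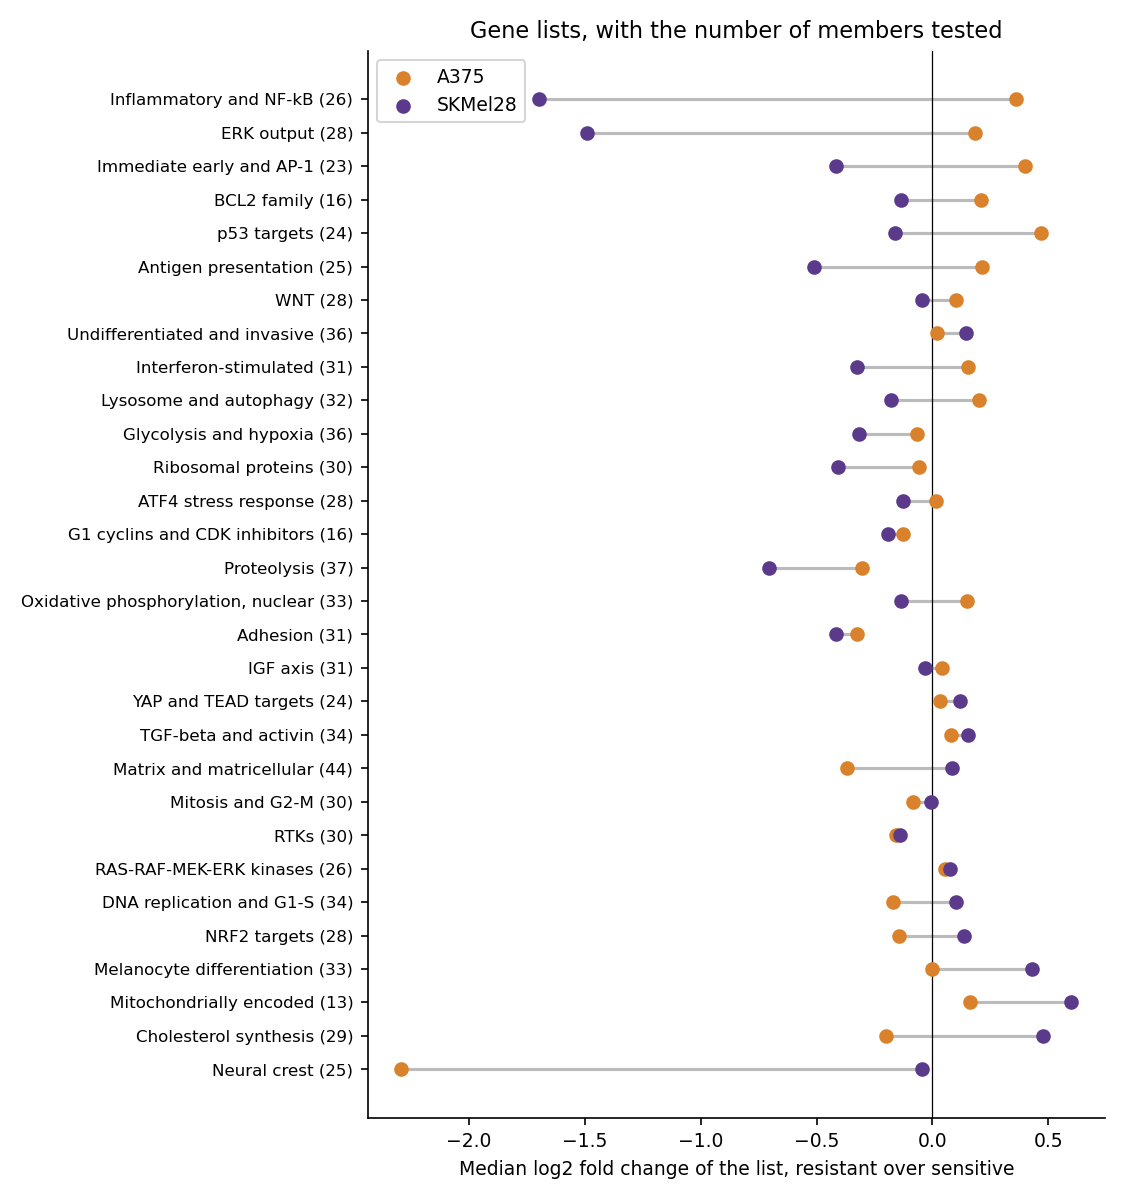
Median log2 fold change from sensitive to resistant cells of 30 gene lists, in A375 (orange) and SKMel28 (purple), with the number of members tested in parentheses and lists ordered by their median interaction. At the top the inflammatory, ERK output and immediate early lists lie above 0 in A375 and below 0 in SKMel28, and near the bottom the cholesterol synthesis list lies at -0.20 in A375 and 0.48 in SKMel28.

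Of 25 antigen presentation genes tested, 11 (44%) were opposite in the first sense and 4 (16%) in the second. The first sense included the class I genes HLA-B, HLA-C and HLA-E, the peptide transporter genes TAP1 and TAP2, the immunoproteasome subunits PSMB8, PSMB9 and PSMB10 and the class I transactivator NLRC5. HLA-B went from 76.8 to 103 CPM in A375 and, in SKMel28, from 201 to 43.0 CPM (0.42 and -2.23). PSMB9 had 17.04 and 27.6 CPM in the A375 groups and 13.7 and 6.63 CPM in those of SKMel28 (0.70 and -1.05). Of the second sense were the class II genes HLA-DPA1 (-2.52 and 0.55), HLA-DMA (-1.38 and 0.59) and HLA-DMB (-3.53 and 0.68) and the chaperone gene CALR. Other class II genes were not: HLA-DRA (-4.83 and -2.70), HLA-DPB1 (-0.35 and -1.96), the invariant chain gene CD74 (-2.78 and -1.88) and the class II transactivator gene CIITA (-2.27 and -1.93) fell in both lines, and HLA-DRB1 fell in A375 (-5.74) and was not called in SKMel28 (0.26). HLA-DPA1 was at 57.2 CPM in sensitive and 9.99 CPM in resistant A375, and at 6.49 and 9.51 CPM in SKMel28. HLA genes resemble one another and vary between people, so their counts are uncertain. The call of HLA-DMB was lost without resistant or sensitive SKMel28 library 2, and without the resistant one that of CALR as well, which left 2 genes of the second sense.

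Of 29 genes of cholesterol and fatty acid synthesis tested, 10 (34.5%) were lower in resistant A375 and higher in resistant SKMel28, 0 showed the reverse, and all 10 kept this call in each of the other 19 fits. Both transcription factors of the pathway, SREBF1 (-0.68 and 1.07) and SREBF2 (-0.27 and 0.78), were among them. INSIG1, the protein that retains these factors in the endoplasmic reticulum, was at 50.3, 51.7 and 49.02 CPM in sensitive and 28.8, 27.2 and 29.5 CPM in resistant A375. In SKMel28 INSIG1 was at 21.3, 21.7 and 19.2 CPM and then 50.5, 49.3 and 51.7 CPM, so the 2 lines exchanged levels. Among the enzymes, IDI1, the isomerase of isopentenyl diphosphate, had -0.35 and 1.15, and MVK, mevalonate kinase, -0.32 and 0.71. SCD, the desaturase that makes oleate, went from 683.9 to 509.8 CPM (-0.42) in A375 and, in SKMel28, from 349.6 to 1693 CPM (2.28). The sterol element TCACNCCAC was in 3 of 149 promoters (2.01%) of the second sense with at least 2-fold changes, in 20 of 1250 (1.60%) of that whole set and in 1.06% of all promoters. Within the cholesterol list it was in 1 of 22 matched promoters, and those of INSIG1 and SREBF1 did not hold these letters.

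Cell cycle genes held opposite members of both senses. Of 34 genes of DNA replication and the G1-S transition, 10 (29.4%) were lower in resistant A375 and higher in resistant SKMel28 and 1, ORC6, showed the reverse, a call lost without sensitive A375 library 1, while 8 fell in both lines. PCNA, the sliding clamp of DNA polymerases, was at 235, 227 and 219 CPM in sensitive and 154, 159.7 and 146 CPM in resistant A375. The SKMel28 libraries had 192, 196 and 181 CPM and then 274, 292 and 304 CPM (log2 fold changes -0.57 ± 0.04 and 0.61 ± 0.04). MCM2, a subunit of the replicative helicase, went from 335 to 269 CPM (-0.32) and from 85.7 to 178 CPM (1.06). Of 30 mitotic genes 7 (23.3%) were opposite in this sense and 1, BIRC5, in the other, and the list medians were -0.08 in A375 and -0.01 in SKMel28. The count of the 7 ran from 3 to 8 over the other fits and was 3 or 4 in 10 of them, including DESeq2, the fits with other scalings, and those without any 1 resistant A375 library or without sensitive A375 library 1. MKI67, the proliferation marker Ki-67, went from 424.5 to 339.5 CPM (-0.32) and from 238 to 331 CPM (0.48). Proliferation itself was not measured. Of 16 G1 cyclins and inhibitors, 6 (37.5%) were opposite in the second sense, including RB1 (-0.60 and 0.35) and the CDK inhibitor gene CDKN1C (-4.07 and 1.21). The 3 (18.8%) of the first sense were CCND1 (0.19 and -1.71), CDKN1A (1.02 and -0.32) and the CDK inhibitor gene CDKN2A (0.59 and -1.83).

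**Figure D4:**
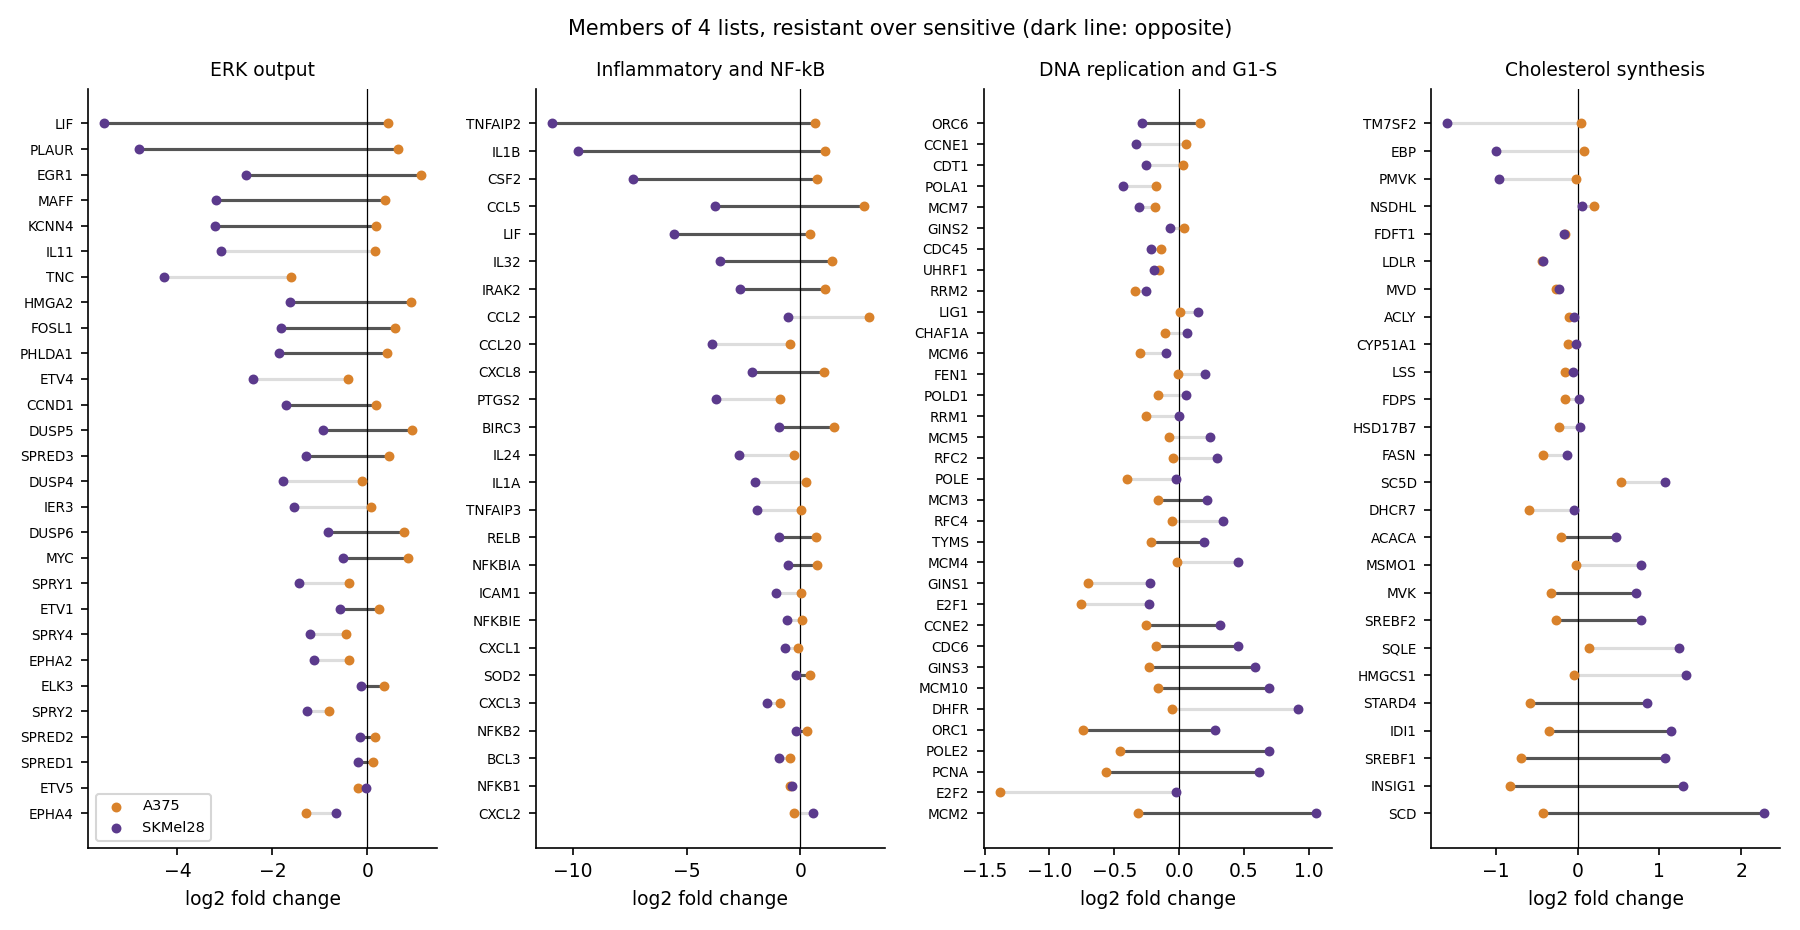
Log2 fold change from sensitive to resistant cells of tested members of 4 lists, in A375 (orange) and SKMel28 (purple), joined by a dark line where the gene was opposite and a light line otherwise; members are ordered by their interaction, and each panel has its own horizontal scale. In the ERK output and inflammatory panels the dark lines run with A375 at the right, and in the cholesterol panel, which draws 8 of the 10 opposite members, the dark lines run with SKMel28 at the right.

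Survival genes were split within the BCL2 family. Of 16 tested, 6 (37.5%) were opposite in the first sense, among them the pro-apoptotic genes BAX (0.51 and -0.78), PMAIP1 (0.61 and -1.11), BCL2L11 and BBC3, and the survival gene MCL1. BCL2, the founding anti-apoptotic member, was the single gene of the other sense. BCL2 was at 9.93, 9.30 and 9.84 CPM in sensitive and 6.07, 6.48 and 5.72 CPM in resistant A375, and at 13.7, 14.5 and 13.6 CPM and then 39.2, 35.8 and 35.2 CPM in SKMel28. The call of BBC3 was lost without sensitive SKMel28 library 3, and that of BCL2A1, also of this family, was lost when any 1 of 5 libraries was left out.

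Of 25 neural crest genes tested, 9 (36%) were lower in resistant A375 and higher in resistant SKMel28, 2 showed the reverse, and 7 fell in both lines. Besides CDH19 and NES, the transcription factor gene FOXD3 was at 7.61, 8.08 and 8.01 CPM in sensitive and 0.280, 0.327 and 0.182 CPM in resistant A375, and at 15.8, 14.3 and 14.99 CPM and then 24.5, 28.9 and 31.2 CPM in SKMel28. The stem cell factor SOX2 (-3.54 and 0.77), SOX6 (-2.62 and 0.31) and PAX3 (-0.26 and 1.15) shared this pattern. ALDH1A1 also carried the call, but it was near 0 in A375, at 0 to 0.122 CPM. SOX9, a factor of the undifferentiated state, had the reverse pattern, at 30.2, 27.3 and 28.8 CPM in sensitive and 201, 206 and 195 CPM in resistant A375 and at 1.67, 1.28 and 1.43 CPM and then 0.369, 0.536 and 0.554 CPM in SKMel28. The median of the list was -2.29 in A375 and -0.05 in SKMel28, where 10 members rose and 10 fell. SOX10 was at 325, 319.6 and 332 CPM in sensitive and 0.0839, 0.178 and 0.151 CPM in resistant A375, and it was also somewhat lower in resistant SKMel28 (722 to 569 CPM, -0.34), so it was not opposite although its interaction was -10.84 ± 0.11.

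MITF, the master regulator of the melanocyte lineage, was opposite. MITF was at 38.5, 40.8 and 39.5 CPM in sensitive and 29.4, 31.2 and 32.3 CPM in resistant A375. Its SKMel28 levels were 499, 510.2 and 514 CPM and then 846, 794 and 780.5 CPM, without overlap in either line (log2 fold changes -0.36 ± 0.05 and 0.67 ± 0.03, edgeR adjusted p for the interaction 6.54e-20). Of 33 genes of melanocyte differentiation, 5 were opposite in this sense, among them EDNRB, the endothelin receptor (-1.32 and 0.55), and ST3GAL6 (-0.71 and 1.41). The 3 of the other sense, DCT, OCA2 and BCL2A1, were at or under 0.413 CPM in both A375 groups, and each lost its call in at least 4 of the 19 other fits. Genes of the undifferentiated and invasive state were opposite in both senses, 7 of 36 (19.4%) in each. NT5E, the ectonucleotidase CD73, went from 94.3 to 185 CPM in A375 and, in SKMel28, from 355 to 100.5 CPM (0.97 and -1.82). SPARC, a matricellular glycoprotein of the same list, was at 1127, 1166 and 1174 CPM in sensitive and 508.0, 473.6 and 484.5 CPM in resistant A375. In SKMel28 SPARC was at 1186, 1226 and 1263 CPM and then 2626, 2697 and 2546 CPM, so that a pair of nearly equal lines parted (-1.24 and 1.10).

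In the list of receptor tyrosine kinases 4 of 30 (13.3%) were opposite in each sense, near the background of all genes. The list also holds NGFR, which has no kinase domain. EGFR was at 38.9, 41.1 and 40.7 CPM in sensitive and 57.4, 57.0 and 60.9 CPM in resistant A375, and at 2.40, 2.69 and 2.51 CPM and then 1.78, 1.86 and 1.60 CPM in SKMel28, where it was low throughout (0.54 and -0.54). AXL went from 490.5 ± 11.6 to 580.4 ± 12.6 CPM in A375 and, in SKMel28, from 13.7 ± 1.07 to 11.7 ± 1.31 CPM (SD, n = 3). In SKMel28 the AXL values of sensitive and resistant libraries overlapped, and the opposite call was lost without resistant SKMel28 library 3. FGFR3 had the widest split of the second sense in this list (-1.39 and 3.83), at no more than 5.09 CPM in any library. NGFR, a receptor of the neural crest-like state, was lower in both resistant lines (-0.82 and -4.17). The target of the drug, BRAF, was at 11.1 CPM in both A375 groups and at 13.4 and 11.4 CPM in SKMel28, and its interaction of 0.24 ± 0.14 was not called (edgeR adjusted p = 0.142).

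The IGF axis, the subject of the series, was opposite for 5 of 31 genes (16.1%) in the first sense and 3 (9.68%) in the second, near the background. IGF1R, the receptor of IGF1 and IGF2, was at 85.5, 86.1 and 86.6 CPM in sensitive and 46.3, 50.7 and 49.6 CPM in resistant A375. In SKMel28 IGF1R was at 153, 169 and 161 CPM and then 281, 275 and 266 CPM. The changes were of nearly equal size in reverse directions without overlap, -0.82 ± 0.04 and 0.77 ± 0.04 (interaction -1.58 ± 0.06, edgeR adjusted p = 3.15e-26). IRS1, the adaptor that couples the receptor to PI3-kinase, had the contrary pattern, at 75.9, 75.7 and 76.95 CPM and then 116, 116 and 113 CPM in A375, and at 37.0, 38.8 and 42.9 CPM and then 11.03, 10.97 and 11.7 CPM in SKMel28. Receptor and adaptor thus moved against each other within each line. The adaptor IRS2 was lower in both resistant lines (-0.73 and -0.20). Among binding proteins and RNA-binding proteins, IGFBP5 (-5.09 and 0.99) and IGF2BP1 (-0.31 and 1.54) were of the second sense, and IGFBP2, IGFBP6, IGF2BP3 (0.46 and -0.39) and STC1, an inhibitor of the pappalysin that cleaves IGF-binding proteins, were of the first.

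Proteolysis genes held opposite members of both senses, 11 of 37 (29.7%) in the first and 8 (21.6%) in the second. The first sense comprised MMP1, MMP10, MMP14, MMP24, TIMP1, PLAUR, PLAT, SERPINB2, TFPI, TFPI2 and CTSB. SERPINB2, an inhibitor of urokinase, was under 1 CPM in every A375 library and went from 85.6 to 3.21 CPM in SKMel28. TIMP3, an inhibitor of metalloproteinases bound to matrix, was of the second sense and went from 1317 to 380.8 CPM in A375 and, in SKMel28, from 1755 to 2271 CPM (-1.79 and 0.37). Among 44 matrix genes, 9 (20.5%) were of the second sense, including COL5A1 (-2.78 and 1.55), and 5 (11.4%) of the first, including COL13A1 (1.42 and -4.52) and CTGF (1.15 and -0.43).

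Nuclear genes of oxidative phosphorylation were opposite in the first sense for 11 of 33 (33.3%) and in the second for 0, as for NDUFS8 of complex I (0.33 and -0.59), with list medians of 0.15 and -0.14. The 13 mitochondrially encoded genes held no opposite member and were called with a more negative interaction for 12. Targets of NRF2, the regulator of antioxidant genes, were of the second sense for 7 of 28 (25%), among them SLC7A11, the cystine transporter (-0.76 and 0.90), and PGD of the pentose phosphate pathway (-0.74 and 0.79). The 3 (10.7%) of the first sense were AKR1C2 (1.24 and -4.20), HMOX1, heme oxygenase 1 (0.49 and -0.28), and KEAP1, which encodes the inhibitor of NRF2 (0.12 and -0.41). Of 28 genes of the ATF4 stress response, 5 (17.9%) were of the second sense and 6 (21.4%) of the first. The amino acid transporters SLC7A11, SLC7A5, SLC3A2 and SLC7A1 and ATF4 itself were of the second sense, and ATF3, DDIT3, CHAC1, PSPH, MTHFD2 and GDF15 of the first. SLC7A5 and SLC3A2, the partners of the large neutral amino acid transporter, changed together (-0.48 and 0.49, -0.50 and 0.37). Lysosome and autophagy genes were of the first sense for 9 of 32 (28.1%), as for the protease gene CTSB (202.6 to 325.3 CPM in A375, 1460 to 896.7 CPM in SKMel28). Targets of YAP and TEAD were opposite for 6 of 24 (25%) in the first sense and 7 (29.2%) in the second. The 7 became 4 with library size alone, without resistant A375 library 1 and without sensitive A375 library 2. WNT genes were opposite for 4 of 28 (14.3%) in the first sense and 6 (21.4%) in the second, and TGF-beta genes for 4 of 34 (11.8%) in each, near the background of all genes. Ribosomal protein genes, which resemble their many pseudogenes and are uncertain for that reason, had 2 opposite members of 30, and RPL3, 1 of them, lost its call in 11 of the 19 other fits.

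Genes with the largest interactions that were not opposite had lost or gained transcripts in 1 line. In A375, EPHA3, an ephrin receptor, fell from 7.96 CPM to no read (at least 272-fold lower), while in SKMel28 it went from 14.3 to 9.95 CPM. In SKMel28, EREG, an EGFR ligand, was at 22.01, 21.9 and 20.1 CPM when sensitive and at 0, 0.0315 and 0 CPM when resistant. In A375 EREG stayed at 0.272 to 0.503 CPM in all 6 libraries, and its change was not called. HOXB13, a homeobox gene, went from 8.63 CPM to no read in SKMel28 (at least 284-fold lower) and was at 11.5 and 11.8 CPM in the A375 groups. PLA2G16, a phospholipase gene, fell from 38.3 CPM to no read in SKMel28 (at least 1258-fold lower) and had a small fall in A375 (78.6 to 64.6 CPM). PPARG, the nuclear receptor, and SLFN11, a factor that sensitises cells to replication stress, likewise had no read in resistant SKMel28, from 2.73 and 3.14 CPM, and stayed above 50 CPM in every A375 library. TWIST2, a factor of mesenchymal cells, was gained in SKMel28, from 0.0217 to 7.12 CPM, and lay at 15.9 and 16.4 CPM in A375. GSTM1 was lost in A375 (17.4 CPM to no read); it belongs to a family of similar genes and its count is uncertain.

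Opposite genes were unevenly spread over chromosome arms. In A375 the median log2 fold change of genes on 1p was -0.53, on 13q -0.44, on 20p -0.47 and on 20q -0.36, and no other arm of the 41 measured lay beyond 0.25 in this line. These 4 arms held 401 of the 1529 genes of the second sense (26.2%), 48 of the 1581 of the first (3.04%) and 1517 of all genes tested (9.78%). On 1p, 32.4% of genes with at least 2 CPM were opposite in the second sense, and on 13q 36.3%. Some genes named above lie on these arms. The A375 changes of PCNA (20p, -0.57), RB1 (13q, -0.60) and PGD (1p, -0.74) were not far beyond their arm medians, whereas those of KCTD12 (13q, -2.07) and SPATA6 (1p, -1.80) were. How much of each change was that of its arm was not tested. In SKMel28, 12 arms lay beyond 0.25, among them Xp at -0.71, 7p at -0.39, 9q at -0.38 and 16q at -0.34, and on 7p 27.0% and on 16q 26.4% of genes were of the first sense. Arms whose median rose in SKMel28 included 10p (0.50), 8q (0.40) and 5q (0.34).

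Leaving out the 16 arms beyond 0.25 in either line, 10225 genes remained, of which 1106 (10.8%) were of the first sense and 768 (7.51%) of the second. After the median of its arm was subtracted in each line, 1454 of 1565 genes of the first sense (92.9%) and 1303 of 1506 of the second (86.5%) still pointed in opposite directions. The opposite members of the ERK output (17 of 17), inflammatory (13 of 13), cholesterol (10 of 10) and neural crest (9 of 9) lists all did so, and 8 of the 10 DNA replication genes and 4 of the 7 targets of YAP and TEAD of the second sense did. DNA copy number was not measured, and the part of the arms in these results beyond those counts was not tested.

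**Figure D5:**
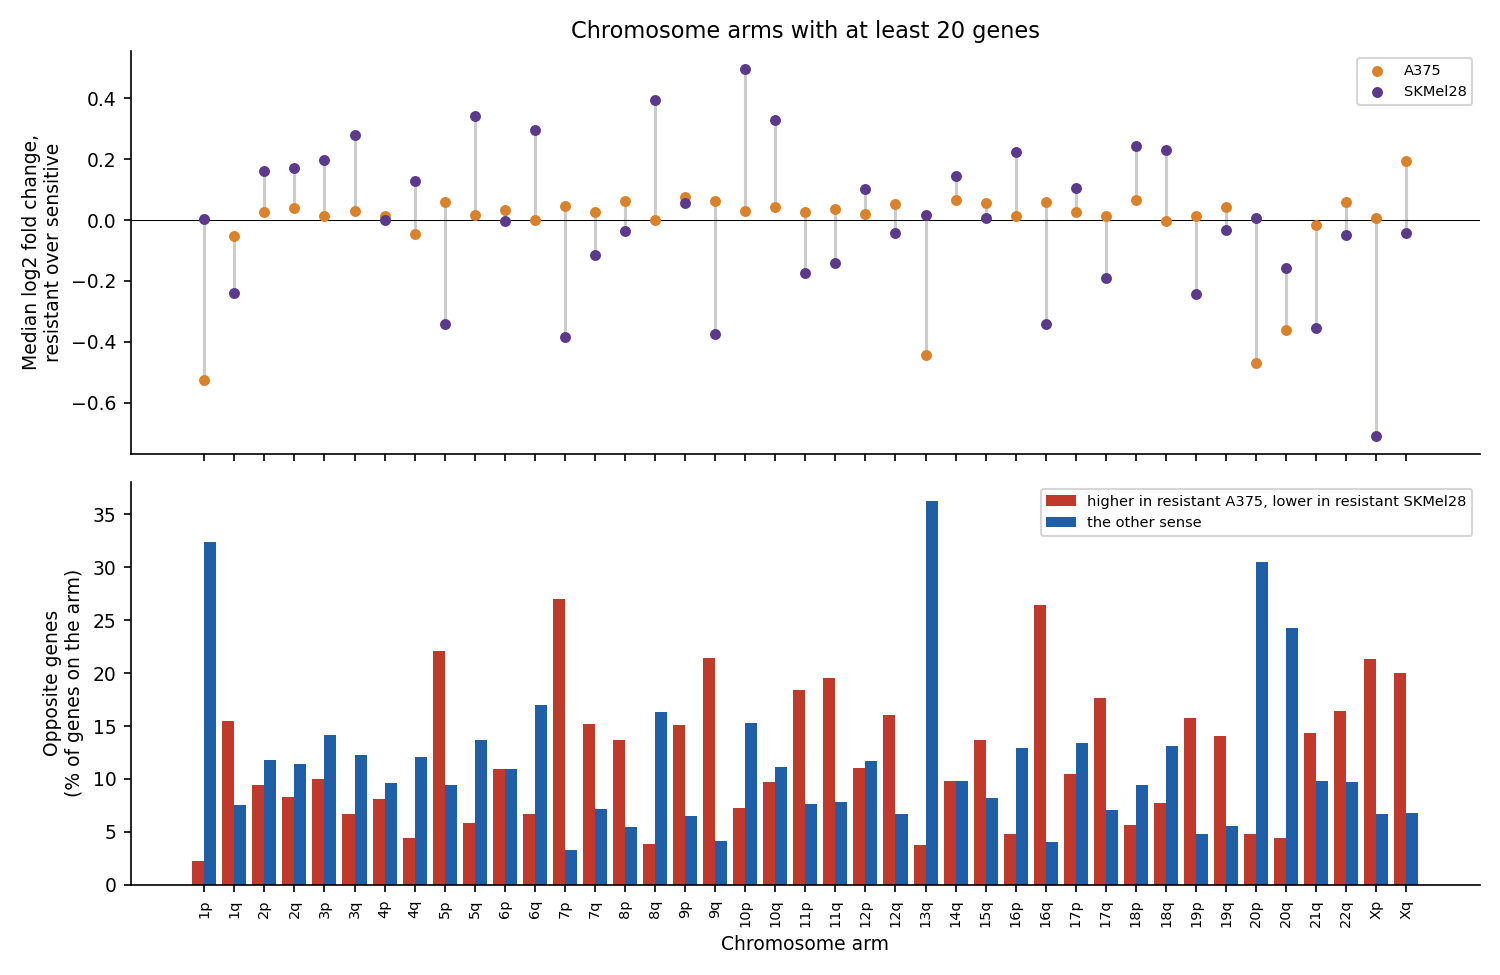
Upper panel: median log2 fold change from sensitive to resistant cells of the genes of each of 41 chromosome arms in A375 (orange) and SKMel28 (purple); lower panel: percent of the genes of each arm that were opposite, in red where higher in resistant A375 and lower in resistant SKMel28 and in blue for the reverse. The arms 1p, 13q, 20p and 20q stand low in A375 and have the highest blue bars (24.3% to 36.3%), and 7p and 16q stand low in SKMel28 and have the highest red bars (27.0% and 26.4%).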

How the data were processed

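Poly(A)-selected RNA of 12 libraries was measured. The authors deposited 1 table of read counts per library, not normalized, with 26499 gene symbols. The submitters' processing notes list HISAT2, StringTie and GRCh38.p12, whereas STAR, untrimmed reads and unstranded counting on hg38 appear in the names of the tables, so the aligner is not settled, and reads of overlapping or antisense genes cannot be told apart. Summary lines of reads not assigned to a gene, 15.1% to 19.5% of all counts, were left out. They include reads aligned to more than 1 place. The share of these was 4.37% to 5.03% in sensitive and 4.57% to 4.79% in resistant A375. In SKMel28 it was 4.00% to 4.47% in sensitive and 2.09% to 2.44% in resistant libraries, so it also moved differently in the 2 lines. Its bearing on the interaction was not tested. Libraries held 28496518 to 37721363 reads in genes.

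Counts were filtered with filterByExpr (15506 genes), scaled by TMM and fitted as 4 group means with a robust quasi-likelihood model in edgeR 4.0.16 (R 4.3.3, 8 residual degrees of freedom). Contrasts were resistant minus sensitive in each line and their difference, two-sided, with p-values adjusted by Benjamini-Hochberg over all tested genes and a threshold of 0.05. CPM are on TMM-adjusted library sizes. Means carry the SD over 3 libraries. Log2 fold changes carry an approximate standard error, the absolute log2 fold change divided by the square root of its F statistic. A floor of 3 reads over a group was used where a group had no read, and covers counting error only. The members and the lists were chosen with earlier results of these data known. Named genes were, for each sense, the 12 opposite genes with the largest smaller change (higher state at 10 CPM or more in both lines, no overlap, unnamed loci and small or antisense RNAs passed over), the 6 largest interactions in each sense that were not opposite, up to 3 opposite members of each list in each sense, 13 genes of IGF and MAPK signalling and of cell states, and 4 genes in each sense whose order between lines turned. Some genes that this rule or the lists take in are counted but not reported here by name. Other genes named were chosen after their values were seen. On simulated counts for 15506 genes, 87 of 100 opposite genes were recovered as opposite and 0 unchanged genes were called opposite. There 76 of 100 genes changed in 1 line and 13 unchanged genes were called in the interaction. The simulation gave all groups the same base levels and 1 fixed spread and changed few genes. It therefore does not test the scaling where most genes differ, as in these data. Chromosome arms and gene positions come from GENCODE release 29 (GRCh38), and arm medians use genes that reach 2 CPM and arms holding 20 or more of them. Alternatives were other scalings (DESeq2 size factors, library size), other filters, DESeq2 1.42.0, a replicate block, removal of mitochondrially encoded genes, separate fits of each line, larger folds, and leaving out each library.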

Additional observations from a re-analysis of the deposited data

Results flagged for a closer look

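In 3110 genes the effect of resistance went in opposite directions in the 2 lines by edgeR's interaction test and both within-line tests. The same test gave the following differences (log2, A375 change minus SKMel28 change) for 23 of the 24 leading genes. In the sense of a more positive change in A375 they were 17.78 for TFPI2 and 14.08 for CDCP1, both fitted against a group without reads and therefore no measured folds. MMP1 had 8.62, TMEM158 8.06, STC1 7.56 and SRGN 5.71. IGFN1 had 5.49, TM4SF1 5.43, LAMB3 4.39, PGF 4.33, EGR1 3.69 and SPHK1 3.13. In the sense of a more negative change they were -11.89 for SERPINF1, -11.21 for CDH19, -9.05 for MAL2 and -6.37 for CKB. OLFML2A had -5.79, ADAM23 -4.90, NES -4.71 and SPATA6 -3.69. KCTD12 had -3.54, CDIP1 -3.28 and ZNF608 -2.49.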

How the results depend on the processing

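Under other scalings, filters and tools the number of interaction calls and of opposite genes of the first sense (higher in resistant A375) and the second stayed within 1.5 times the reported counts. They were 9861, 1790 and 1369 with DESeq2 size factors in edgeR, 9851, 1858 and 1312 with library size alone, and 9923, 1772 and 1358 with DESeq2. Leaving out 1 library gave 9541 to 9807 interaction calls, 1401 to 1717 genes of the first sense and 1304 to 1566 of the second. Counts fell by construction with larger folds: 378 and 380 at 1.5-fold in each line, 177 and 198 at 2-fold, and 3640 interactions of at least 2-fold. Without the arms beyond 0.25, an alternative added after seeing the data that tests fewer genes, 6233 interactions and 768 genes of the second sense remained. Same-number libraries of a line had residual correlations from -0.00468 to 0.13, so the numbers were not taken as pairs, and a fit with a replicate block within each line gave 9963, 1631 and 1560. Of 158 named opposite genes, 136 kept the call in all 19 other fits. BRAF's interaction was called without resistant SKMel28 library 1 (0.35, edgeR adjusted p = 0.0417). No named value reversed.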
